A study of Homo sapiens with 12 samples.

Results

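The enzymes described here convert steroid hormones into more or less active forms: the aldo-keto reductases AKR1C1, AKR1C2 and AKR1C3, the hydroxysteroid dehydrogenases HSD3B1, HSD11B2, HSD17B4, HSD17B6 and HSD17B11, and the 5-alpha-reductases SRD5A1 and SRD5A3. They were found by their gene symbol in the array's annotation. Of the 10 enzymes listed, 9 had a named row, each with 1 row, out of 17687 genes in all, and SRD5A3 is not analysed here. The samples were 2 cell lines, LNCaPabl-Abi and LNCaPabl-Enza, whose names derive from the human prostate cancer line LNCaP, and their RNA was measured on 12 Affymetrix arrays. Both were grown with fetal calf serum. Neither the meaning of Abi and Enza nor the way the lines were derived is stated in the labels. Each line was treated for 24 h with the solvent DMSO or with 100 nM dexamethasone, a synthetic glucocorticoid, so that each of the 4 groups (Abi_Ctrl and Enza_Ctrl with DMSO, Abi_Dex and Enza_Dex with dexamethasone) held 3 arrays. Separate cultures for the replicates are not stated, and the p-values below measure the spread between arrays, which may be technical.

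In prostate tissue the potency of an androgen is set locally by pairs of opposing enzymes. AKR1C3 and other reductases make testosterone from weaker precursors, SRD5A1 and SRD5A3 reduce testosterone or its precursors towards dihydrotestosterone, while AKR1C2 and oxidative dehydrogenases such as HSD17B11 can act in the inactivating direction. HSD3B1 acts upstream, where it turns dehydroepiandrosterone into androstenedione. HSD11B2 works on another hormone class and converts cortisol into inactive cortisone, which limits the access of cortisol to its receptors.

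The 3 AKR1C genes are neighbours on chromosome 10 (GRCh38.p14): AKR1C1 at 4963415 to 4983283, AKR1C2 at 4987775 to 5018000 and AKR1C3 at 5048781 to 5107686. Their products and transcripts are close copies of each other, so the array may not fully separate them and the value of each is uncertain. The 250 bases before the start site, from RefSeq on GRCh38.p14, are a separate, upstream stretch. They are shown for the AKR1C genes, which had the same direction between the lines, and for HSD17B11, whose difference between the lines was the best supported. AKR1C1 lies on the plus strand at chr10:4963165-4963414, AKR1C2 on the minus strand at chr10:5003858-5004107, AKR1C3 on the plus strand at chr10:5048531-5048780 and HSD17B11 on the minus strand at chr4:87391189-87391438. The start that the RefSeq table uses for AKR1C2 lies inside the gene's full span, which reaches 5018000, so its window is not upstream of the whole gene. Capitals mark the letters ACANNNTGT, the core of a binding site shared by the glucocorticoid and androgen receptors.
AKR1C1: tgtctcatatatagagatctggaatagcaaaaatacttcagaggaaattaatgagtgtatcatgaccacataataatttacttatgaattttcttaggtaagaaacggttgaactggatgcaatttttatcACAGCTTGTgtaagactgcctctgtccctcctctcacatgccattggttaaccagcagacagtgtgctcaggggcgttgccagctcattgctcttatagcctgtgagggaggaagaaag
AKR1C2: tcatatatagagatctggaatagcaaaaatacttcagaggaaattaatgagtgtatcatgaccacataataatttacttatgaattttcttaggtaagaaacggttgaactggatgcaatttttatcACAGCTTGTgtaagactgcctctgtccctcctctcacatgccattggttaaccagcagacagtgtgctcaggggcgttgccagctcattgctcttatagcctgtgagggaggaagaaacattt
AKR1C3: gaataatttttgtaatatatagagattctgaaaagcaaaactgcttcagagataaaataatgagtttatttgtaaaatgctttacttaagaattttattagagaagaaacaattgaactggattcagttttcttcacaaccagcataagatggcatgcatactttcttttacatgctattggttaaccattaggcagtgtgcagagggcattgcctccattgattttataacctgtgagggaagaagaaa
HSD17B11: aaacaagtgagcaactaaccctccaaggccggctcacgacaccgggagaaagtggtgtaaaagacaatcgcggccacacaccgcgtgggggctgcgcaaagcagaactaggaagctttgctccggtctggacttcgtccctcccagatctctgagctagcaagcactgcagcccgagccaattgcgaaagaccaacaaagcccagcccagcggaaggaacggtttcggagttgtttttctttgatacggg
The AKR1C1 and AKR1C2 windows were identical at 245 bases, or 96.5% of aligned positions, while AKR1C3 shared 72.4% with AKR1C1 and 70.6% with AKR1C2. ACANNNTGT, searched on both strands, occurred in AKR1C1 and AKR1C2 only among these 4 windows, and in 4.68% of all 27305 promoter windows of this length. TGACNNNGC, the core of the antioxidant response element and also searched on both strands, occurred in none of the 4 windows and in 3013 of all 27305. A match in letters is a description of the sequence and does not show binding.

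One array, Enza_Ctrl replicate 2, stood apart from the other 11. Its median Pearson r with the other arrays was 0.856 against 0.986 to 0.990, and its 4 poly-A spike-in controls averaged 3.46 against 7.07 to 8.10. The enzymes' differences are therefore given with all 12 arrays and again without this array. Over the other 11 arrays the 14 measured markers of luminal prostate epithelium averaged 10.47 to 11.35 on the log2 scale. KRT8 lay between 13.6 and 14.6, while KLK2, TRPM8 and SLC45A3 stayed at or below 6.87. The averages were 4.47 to 4.94 for 6 immune markers, 3.71 to 4.05 for 5 endothelial markers, 4.96 to 5.58 for 7 fibroblast markers, 6.95 to 7.58 for 4 basal markers, 4.28 to 5.16 for 6 neuroendocrine markers and 4.65 to 5.12 for 5 adrenal cortex markers. The defining immune marker PTPRC reached 5.16 and endothelial PECAM1 4.11, but CD68 reached 7.70 and ACTA2 10.59. On Enza_Ctrl replicate 2 the immune, endothelial, fibroblast and adrenal cortex averages were 5.64, 5.39, 6.16 and 5.62, all above the range of the other arrays. The luminal average of 10.26 was below that range, and the basal and neuroendocrine averages of 7.23 and 4.39 were inside it. The median of the background control rows on this array was 5.77, against 3.95 to 3.98 on the other 11. The array has no absolute zero. SRD5A1, HSD11B2, HSD17B4 and HSD17B11 lay between 8.95 and 13.14 without Enza_Ctrl replicate 2. AKR1C1, AKR1C2, AKR1C3, HSD3B1 and HSD17B6 lay between 2.83 and 5.47, inside the span of the 23 background control rows (2.42 to 8.21 on the other 11 arrays), and whether their RNA was detected at all was not tested.

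**Figure D1:**
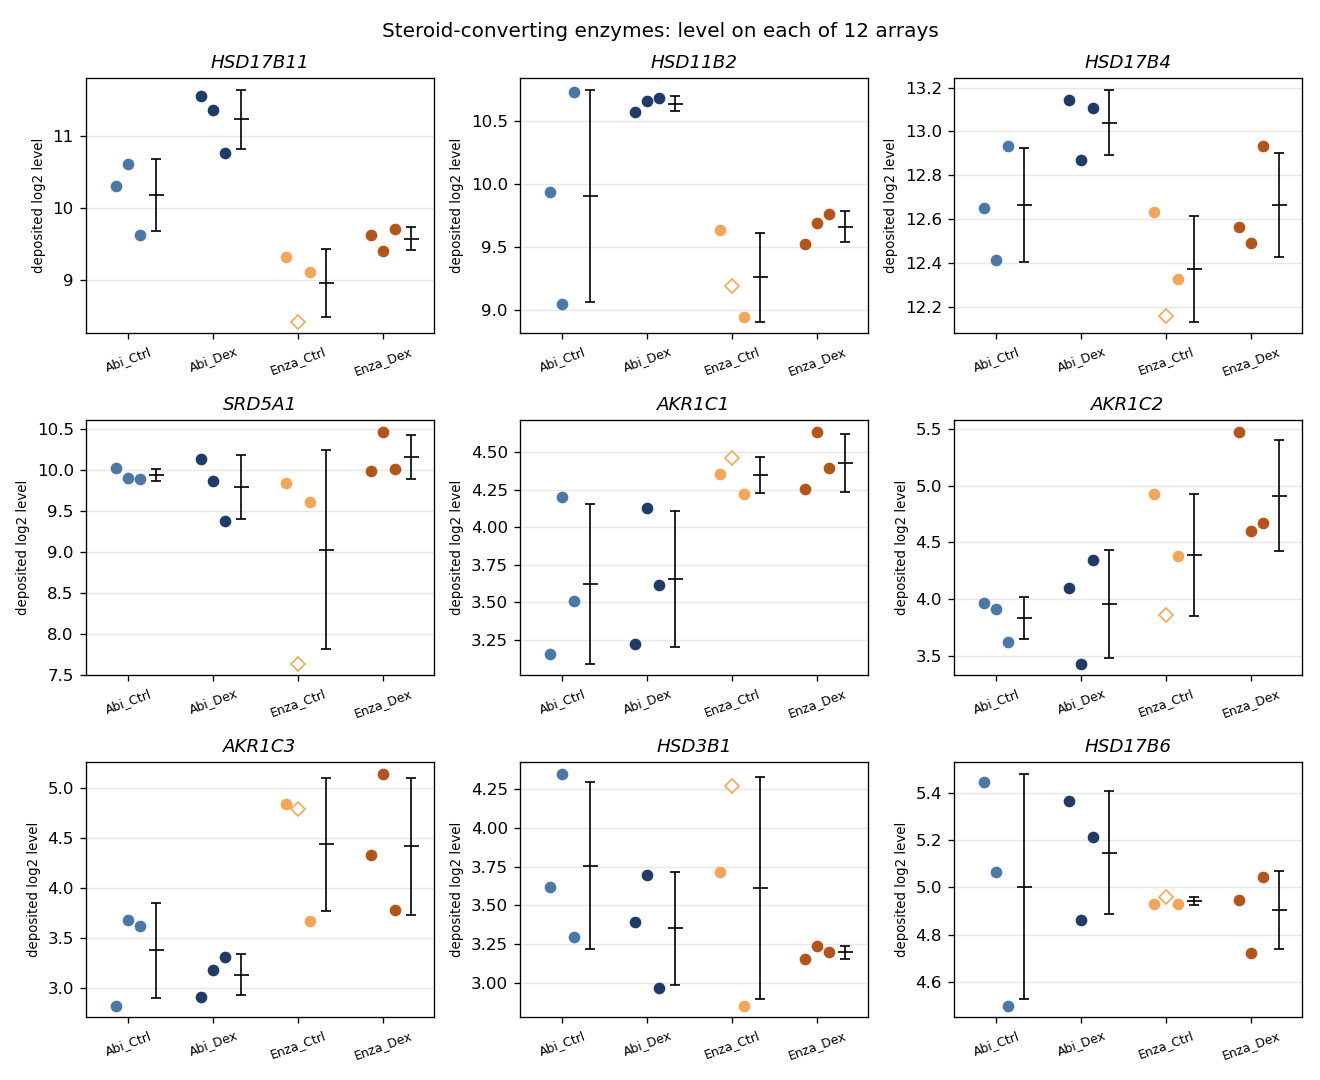
Deposited log2 level (vertical axis) of each of the 9 measured enzymes on each array, by group (horizontal axis); points are arrays, the open diamond is Enza_Ctrl replicate 2, and the bar shows the mean ± SD of 3 arrays. HSD17B11 was lower in both Enza groups than in the Abi group with the same treatment without overlap. With 12 arrays 8.22% of all genes were so with DMSO and 10.7% with dexamethasone. SRD5A1 had 1 low array, the open diamond at 7.63.

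With dexamethasone, LNCaPabl-Enza had less HSD17B11 than LNCaPabl-Abi, the best supported difference of the whole group of enzymes. HSD17B11, a dehydrogenase of lipid droplets that oxidises androgen metabolites, lies on chromosome 4 at 87336515 to 87391188 (GRCh38.p14). The Abi_Dex arrays read 11.56, 11.37 and 10.77 and the Enza_Dex arrays 9.62, 9.40 and 9.70. Every Enza_Dex array was below every Abi_Dex array, as was true in the lower direction for 10.7% of all genes. The group means were 11.23 ± 0.41 and 9.58 ± 0.15 (SD, n = 3), a log2 difference of -1.66 ± 0.33 (SE), or 3.15-fold lower on the deposited scale. In bulk RNA, fewer cells with the transcript and less transcript per cell cannot be told apart.

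By limma HSD17B11 in the treated lines had an adjusted p of 0.0929 with all 12 arrays and of 0.00205 without Enza_Ctrl replicate 2. That array is in neither treated group and enters this fit only through the shared estimate of the spread. Whether it also affected the deposited RMA values of the other arrays was not tested. When only the 6 arrays of the treated groups were fitted, the adjusted p by limma was 0.00202 with a difference of -1.66 ± 0.21 (SE). Over both directions 0.277% of all genes were called in the treated lines with 12 arrays and 2.28% without Enza_Ctrl replicate 2. In the lower direction 0.153% were called with 12 arrays, 1.53% without that array, 1.89% when only the 6 arrays were fitted and 2.79% with array weights. Of the 9 enzymes, 5 had an unadjusted limma p under 0.05 with 12 arrays, and 5 without Enza_Ctrl replicate 2. The shares of all genes at that p were 4.14% and 11.5%. By adjusted p 0 enzymes were called with 12 arrays, and HSD17B11 was the 1 called without Enza_Ctrl replicate 2. HSD17B11 kept that call when any 1 treated array was also left out (limma adjusted p from 0.00115 to 0.0163). Leaving out a DMSO array instead left the difference at -1.66. With Enza_Ctrl replicate 2 kept, leaving out any other array gave no call (limma adjusted p up to 0.488). With 12 arrays the replicate block and quantile normalization anew gave no call (limma adjusted p = 0.127 and 0.0628). Leaving out the dimmest 20% of genes gave none (limma adjusted p = 0.0743), but array weights gave a call (limma adjusted p = 7.36e-05).

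With DMSO the direction of HSD17B11 was the same. The Abi_Ctrl arrays read 10.31, 10.61 and 9.63 and the Enza_Ctrl arrays 9.32, 8.42 and 9.12, the middle one being replicate 2. The groups did not overlap with or without that array, as was true in the lower direction for 8.22% and 12.5% of all genes. With 12 arrays HSD17B11 differed by -1.23 ± 0.33 (SE, limma adjusted p = 0.251). Leaving out Enza_Ctrl replicate 2 gave -0.96 ± 0.28 (limma adjusted p = 0.143), so neither fit passed over all genes. Leaving out Abi_Ctrl replicate 3 as well, the Abi_Ctrl array nearest the Enza_Ctrl level, gave a call (limma adjusted p = 0.0313). That fit was added after seeing the data. Leaving out any other Abi_Ctrl array or any treated array instead gave no call. The untreated and treated comparisons share no arrays. Of the 9 enzymes, 0 were called in either set, and 3 and 4 had an unadjusted limma p under 0.05. The shares of all genes at that p were 11.3% and 11.1%. Called genes in the untreated lines were 0.266% of all genes with 12 arrays and 1.29% without Enza_Ctrl replicate 2. With 12 arrays the called genes split into 10 higher and 37 lower in LNCaPabl-Enza, and into 12 higher and 24 lower after quantile normalization anew.

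**Figure D2:**
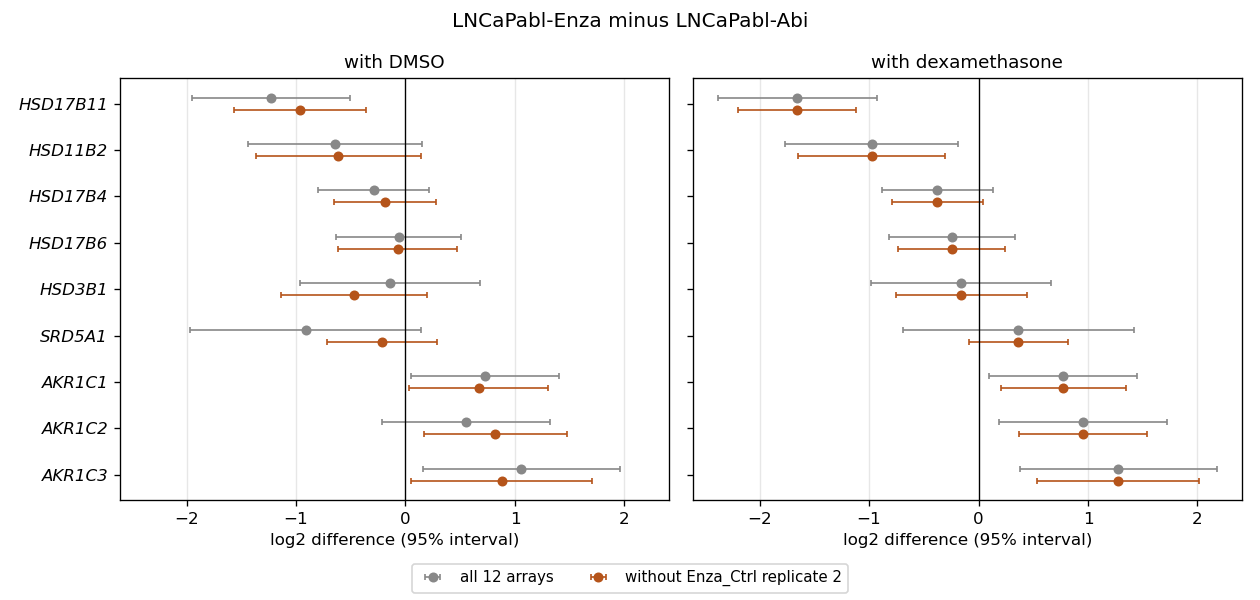
Log2 difference LNCaPabl-Enza minus LNCaPabl-Abi (horizontal axis) for each enzyme with DMSO (left) and with dexamethasone (right); points are limma estimates and bars their 95% intervals for a single gene, unadjusted, with all 12 arrays (grey) and without Enza_Ctrl replicate 2 (orange). HSD17B11 lay at -1.66 and the 3 AKR1C genes between 0.77 and 1.28 with dexamethasone.

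HSD11B2, the cortisol-inactivating enzyme (chromosome 16, 67429801 to 67437553), was also lower in the treated LNCaPabl-Enza arrays. It read 10.57, 10.66 and 10.68 in Abi_Dex and 9.52, 9.69 and 9.76 in Enza_Dex. The 2 groups were tight and did not overlap, in an order seen in the lower direction for 10.7% of all genes. The difference of -0.98 ± 0.36 (SE, 1.97-fold on the deposited scale) did not pass by limma, with an adjusted p of 0.860 over 12 arrays and of 0.164 when Enza_Ctrl replicate 2 was left out. It passed when only the 6 treated arrays were fitted (limma adjusted p = 0.00708, SE 0.15), a fit that leaves out the uneven Abi_Ctrl arrays. It also passed with array weights (limma adjusted p = 0.0183). In these fits 1.89% and 2.79% of all genes were called lower. Leaving out Abi_Ctrl replicate 2 or 3 after Enza_Ctrl replicate 2 gave a call as well (limma adjusted p = 0.0383 and 0.0417). It did not pass with the replicate block (limma adjusted p = 0.873, and 0.124 without Enza_Ctrl replicate 2) or after quantile normalization anew (limma adjusted p = 0.952).

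Those DMSO arrays of HSD11B2 read 9.94, 9.05 and 10.73 in Abi_Ctrl and 9.64, 9.19 and 8.95 in Enza_Ctrl. Abi_Ctrl spanned more than the whole gap between the lines, and the groups overlapped. HSD11B2 differed by -0.65 ± 0.36 with 12 arrays and by -0.61 ± 0.35 (SE) when Enza_Ctrl replicate 2 was left out (limma adjusted p = 0.432 and 0.568). HSD17B4, the peroxisomal enzyme that takes part in fatty acid oxidation and can oxidise estradiol, differed between the treated lines by -0.38 ± 0.23 and between the untreated lines by -0.29 ± 0.23 (SE, limma adjusted p = 1.00 and 0.479), with overlapping groups. With Enza_Ctrl replicate 2 left out HSD17B4 was at -0.38 ± 0.20 and -0.18 ± 0.22 (limma adjusted p = 0.510 and 0.829). Within groups, HSD17B4 and HSD11B2 varied together across arrays. The deviations from the group means had a Pearson r of 0.754 over the 11 arrays without Enza_Ctrl replicate 2, the second highest of 36 pairs. The highest, 0.763, was that of HSD17B11 with HSD3B1, whose levels lie in the range of the background rows. The lowest, -0.629, was that of HSD11B2 with HSD17B11. The arrays share the line, the treatment and their normalization, and these values are a description only.

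The 3 AKR1C genes had the opposite direction, higher in LNCaPabl-Enza. AKR1C3, the reductase that makes testosterone from androstenedione, read 2.92, 3.18 and 3.32 in Abi_Dex and 4.33, 5.14 and 3.78 in Enza_Dex. AKR1C2, which inactivates dihydrotestosterone, read 4.10, 3.43 and 4.35 in Abi_Dex and 5.47, 4.60 and 4.67 in Enza_Dex. AKR1C1, which inactivates progesterone, read 3.22, 4.13 and 3.61 in Abi_Dex and 4.25, 4.64 and 4.39 in Enza_Dex. For each of the 3, every treated Enza array was above every treated Abi array, an order in the higher direction that 9.43% of all genes showed. The related AKR1C4, outside this group of enzymes, averaged 3.84 in Enza_Dex and 4.03 in Abi_Dex, with overlap. With DMSO it averaged 4.93 in Enza_Ctrl, where 1 array read 7.08, and 3.98 in Abi_Ctrl, also with overlap.

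The treated difference was 1.28 ± 0.41 (SE) for AKR1C3, 0.95 ± 0.35 for AKR1C2 and 0.77 ± 0.31 for AKR1C1. No fold is given, since these levels lie inside the span of the background rows. By limma none of the 3 passed with 12 arrays (adjusted p = 0.600, 0.850 and 1.00) or without Enza_Ctrl replicate 2 (adjusted p = 0.0789, 0.102 and 0.206). AKR1C3 passed when only the 6 treated arrays were fitted (limma adjusted p = 0.0427), where 0.95% of all genes were called higher, against 0.124% with 12 arrays. AKR1C2 and AKR1C3 also passed with limma's array weights (adjusted p = 0.0196 and 0.0137), where 1.54% of all genes were called higher. With the replicate number as a block and Enza_Ctrl replicate 2 left out, all 3 passed, although the numbers were not taken to pair the arrays. The limma adjusted p was 0.0410 for AKR1C1, 0.0437 for AKR1C2 and 0.0489 for AKR1C3, all just under the cutoff. In that fit 540 of all 17687 genes were called over both directions, against 49 with 12 arrays and no block. The AKR1C calls thus depended on the arrays, weights and block used in the fit.

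With DMSO the AKR1C levels were less regular. AKR1C3 read 2.83, 3.68 and 3.62 in Abi_Ctrl and 4.84, 4.79 and 3.67 in Enza_Ctrl, and the groups overlapped, with Enza_Ctrl replicate 3 at the Abi level. AKR1C2 read 3.97, 3.91 and 3.62 in Abi_Ctrl against 4.93, 3.86 and 4.38 in Enza_Ctrl, where the low array is replicate 2. AKR1C1 read 3.16, 4.20 and 3.51 against 4.36, 4.46 and 4.22, without overlap, although the nearest arrays of the groups almost met. In the higher direction 5.95% of all genes did not overlap, and 11.5% without Enza_Ctrl replicate 2, when AKR1C2 did not overlap either.

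The untreated differences were 1.06 ± 0.41 (SE) for AKR1C3, 0.55 ± 0.35 for AKR1C2 and 0.73 ± 0.31 for AKR1C1 (limma adjusted p = 0.432, 0.435 and 0.432). Without Enza_Ctrl replicate 2 they were 0.88 ± 0.39, 0.82 ± 0.31 and 0.67 ± 0.30 (adjusted p = 0.401, 0.286 and 0.412). The 3 genes thus had a positive difference in both comparisons, and none passed over all genes with DMSO. Since the array may read close copies together, 3 genes of 1 direction are not 3 independent observations.

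SRD5A1, the reductase that converts testosterone to dihydrotestosterone and androstenedione to androstanedione, showed no called difference between the lines. It read 10.02, 9.90 and 9.90 in Abi_Ctrl, 9.84, 7.63 and 9.61 in Enza_Ctrl, 10.14, 9.86 and 9.38 in Abi_Dex and 9.98, 10.46 and 10.02 in Enza_Dex. The single low value of 7.63 was Enza_Ctrl replicate 2, and the groups did not overlap with DMSO, with or without it. In the lower direction this held for 8.22% of all genes with that array and 12.5% without it. With it the untreated difference was -0.91 ± 0.48 (SE, limma adjusted p = 0.432). Without it the difference was -0.21 ± 0.24 (adjusted p = 0.814), with a 95% interval of -0.72 to 0.29. In the treated lines it was 0.36 ± 0.48 (SE, limma adjusted p = 1.00), or ± 0.21 with the array left out (adjusted p = 0.582), and the groups overlapped.

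HSD3B1 and HSD17B6, the latter an oxidative enzyme that can return androstanediol to dihydrotestosterone, stayed in the range of the background rows in every group. HSD3B1 ranged from 3.30 to 4.35 in Abi_Ctrl, 2.97 to 3.70 in Abi_Dex, 2.85 to 4.27 in Enza_Ctrl and 3.15 to 3.24 in Enza_Dex. HSD17B6 ranged from 4.50 to 5.45 in Abi_Ctrl, 4.86 to 5.37 in Abi_Dex, 4.93 to 4.96 in Enza_Ctrl and 4.72 to 5.04 in Enza_Dex. The groups of both genes overlapped in both lines comparisons, and the differences were -0.14 ± 0.37 and -0.16 ± 0.37 (SE) for HSD3B1 and -0.06 ± 0.26 and -0.24 ± 0.26 for HSD17B6 with DMSO and with dexamethasone. With Enza_Ctrl replicate 2 left out, HSD3B1 was at -0.47 ± 0.31 and -0.16 ± 0.28 and HSD17B6 at -0.07 ± 0.26 and -0.24 ± 0.23. The 95% interval of HSD3B1 with DMSO ran from -0.96 to 0.68 with 12 arrays and from -1.14 to 0.20 without that array. By limma neither gene passed in either set, with adjusted p of 0.631 or more.

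Dexamethasone gave no called change of any of the 9 enzymes by limma in LNCaPabl-Abi or LNCaPabl-Enza, with 12 arrays or without Enza_Ctrl replicate 2. In LNCaPabl-Abi 0.0283% of all genes were called with 12 arrays and 0.141% without that array, and in LNCaPabl-Enza 0% in both sets. At an unadjusted p under 0.05, 1 enzyme stood in LNCaPabl-Abi with 12 arrays and 2 without the array, and 1 and 0 in LNCaPabl-Enza. The shares of all genes at that p were 1.36% and 7.09% in LNCaPabl-Abi and 3.96% and 3% in LNCaPabl-Enza. Across the 9 enzymes the median of the differences was 0.12 for LNCaPabl-Abi and 0.29 for LNCaPabl-Enza, against 0.00 and 0.06 over all genes, and without Enza_Ctrl replicate 2 the value for LNCaPabl-Enza was 0.18. The responses in both lines are each measured against their own DMSO arrays, which also enter the comparison of the untreated lines.

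The largest difference in LNCaPabl-Abi was that of HSD17B11, at 1.05 ± 0.33 (SE), 2.07-fold on the deposited scale. The Abi_Dex arrays, from 10.77 to 11.56, all lay above the Abi_Ctrl arrays, from 9.63 to 10.61, in an order that 6.26% of all genes showed in this direction. The adjusted p by limma was 1.00 with 12 arrays and 0.251 without Enza_Ctrl replicate 2, and with array weights it was 0.0429, where 0.192% of all genes were called higher. Of 14 measured markers of luminal prostate epithelium, 8 also lay higher and 1 lower in Abi_Dex than in Abi_Ctrl without overlap. Those orders held for 6.26% and 6.01% of all genes. By limma 4 of the 14 markers had an unadjusted p under 0.05 with 12 arrays and 7 without Enza_Ctrl replicate 2. The shares of all genes at that p were 1.36% and 7.09%. One of the markers, TMPRSS2, a membrane protease whose gene responds to androgens, was called. TMPRSS2 ranged from 11.03 to 11.41 in Abi_Ctrl and from 13.23 to 13.60 in Abi_Dex, and rose by 2.19 ± 0.27 (SE, limma adjusted p = 0.0167, and 6.55e-05 without that array). The part of these markers in the HSD17B11 difference was not tested. In LNCaPabl-Enza HSD17B11 differed by 0.62 ± 0.33 (limma adjusted p = 0.523), and by 0.36 ± 0.28 when Enza_Ctrl replicate 2 was left out (adjusted p = 1.00). The groups in LNCaPabl-Enza did not overlap, as held in the higher direction for 3.96% of all genes with 12 arrays and 7.93% without that array. The test of the difference between the responses gave -0.43 ± 0.47 with 12 arrays and -0.69 ± 0.38 (SE) with the array left out (limma adjusted p = 0.793 and 0.999).

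HSD11B2 was at 0.73 ± 0.36 (SE) in LNCaPabl-Abi and at 0.40 ± 0.36 in LNCaPabl-Enza (limma adjusted p = 1.00 and 0.550). The Abi_Ctrl arrays from 9.05 to 10.73 surrounded the Abi_Dex arrays from 10.57 to 10.68, so the groups overlapped. With Enza_Ctrl replicate 2 left out HSD11B2 was at 0.73 ± 0.31 and 0.37 ± 0.35 (limma adjusted p = 0.688 and 1.00). Without Abi_Ctrl replicate 2 the difference in LNCaPabl-Abi was 0.30 and without Abi_Ctrl replicate 3 it was 1.14. HSD17B4 was at 0.37 ± 0.23 and 0.29 ± 0.23 (limma adjusted p = 1.00 and 0.526), with an overlap in both lines, and at 0.37 ± 0.20 and 0.18 ± 0.22 with the array left out (adjusted p = 0.727 and 1.00).

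SRD5A1 was at -0.15 ± 0.48 (SE) in LNCaPabl-Abi and at 1.13 ± 0.48 in LNCaPabl-Enza (limma adjusted p = 1.00 and 0.523). The Enza_Dex arrays, from 9.98 to 10.46, lay above the Enza_Ctrl arrays without overlap, as did 3.96% of all genes in this direction, and 7.93% without Enza_Ctrl replicate 2. The low array held much of that size, since leaving it out gave 0.43 ± 0.24 (limma adjusted p = 1.00). The test of the difference between the SRD5A1 responses gave 1.27 ± 0.68 with 12 arrays and 0.58 ± 0.32 without the array (limma adjusted p = 0.793 and 0.999), and 0% of all genes were called in either set, with 266 and 566 genes and 0 enzymes at an unadjusted p under 0.05.

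**Figure D3:**
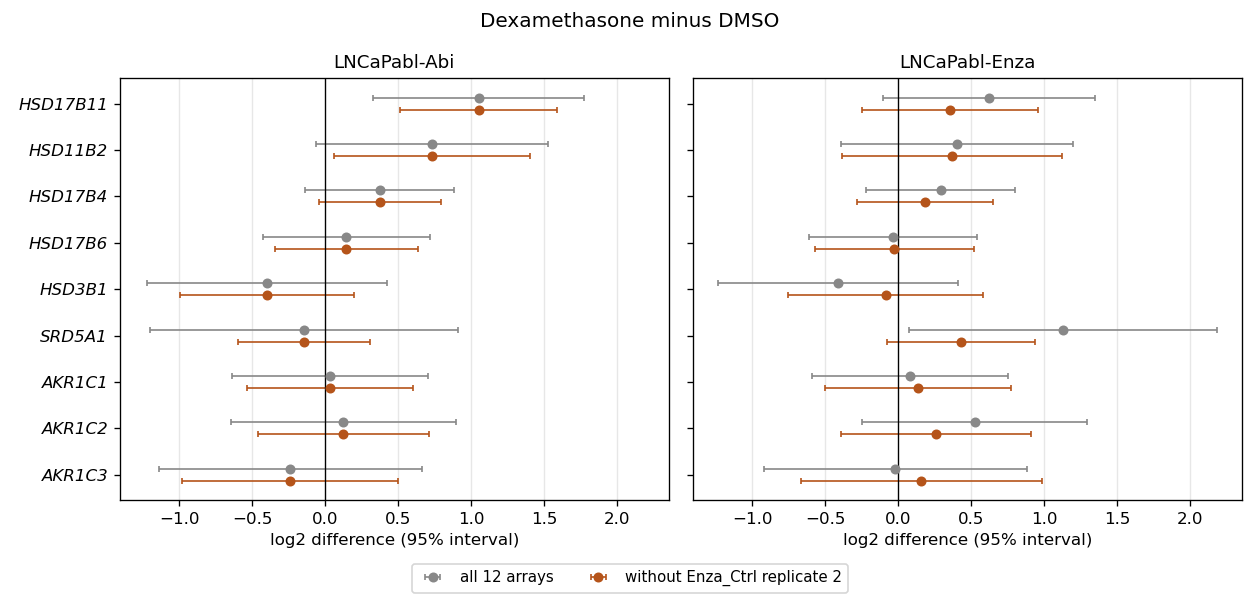
Log2 difference dexamethasone minus DMSO (horizontal axis) for each enzyme in LNCaPabl-Abi (left) and LNCaPabl-Enza (right); points are limma estimates and bars their 95% intervals for a single gene, unadjusted, with all 12 arrays (grey) and without Enza_Ctrl replicate 2 (orange). HSD17B11 had the largest difference in LNCaPabl-Abi, at 1.05, and SRD5A1 in LNCaPabl-Enza moved from 1.13 to 0.43 when the array was left out.

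The AKR1C genes and the dim dehydrogenases showed no called change. AKR1C1, AKR1C2 and AKR1C3 were at 0.03 ± 0.31, 0.12 ± 0.35 and -0.24 ± 0.41 (SE) in LNCaPabl-Abi, with 95% intervals that reached from -1.14 for AKR1C3 to 0.89 for AKR1C2. In LNCaPabl-Enza they were at 0.08 ± 0.31, 0.52 ± 0.35 and -0.02 ± 0.41, and without Enza_Ctrl replicate 2 at 0.14 ± 0.30, 0.26 ± 0.31 and 0.16 ± 0.39, so that AKR1C3 had the other sign. HSD3B1 was at -0.40 ± 0.37 and -0.42 ± 0.37 in the 2 lines, and HSD17B6 at 0.14 ± 0.26 and -0.04 ± 0.26. With the array left out the values for LNCaPabl-Enza were -0.09 ± 0.31 for HSD3B1 and -0.03 ± 0.26 for HSD17B6, while those for LNCaPabl-Abi kept their size and changed only in SE. The groups of these 5 genes overlapped in both lines.

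Other genes of steroid conversion were read from lists drawn up with earlier results of these data known. Among 35 further steroid-converting enzymes, which make, reduce or oxidise steroid hormones, 28 were measured. By limma 0 were called in any of the 5 comparisons with 12 arrays, where 0 to 3 per comparison had an unadjusted p under 0.05. The share of all genes at that p ran from 1.36% to 11.3% per comparison. Without Enza_Ctrl replicate 2, HSD17B7 was called in the treated lines. HSD17B7, which reduces a sterol in cholesterol synthesis and can also make estradiol from estrone, read 8.70, 9.04 and 8.72 in Abi_Dex and 9.83, 10.23 and 9.55 in Enza_Dex.

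The treated difference of HSD17B7 was 1.05 ± 0.21 (SE) without Enza_Ctrl replicate 2 (limma adjusted p = 0.0123), where 0.752% of all genes were called higher. With 12 arrays its SE was 0.85 (adjusted p = 1.00), and that array read 5.64 while the other Enza_Ctrl arrays read 9.97 and 9.49. The DMSO difference was 0.85 ± 0.23 without the array (adjusted p = 0.111) and turned to -0.52 ± 0.85 with it. HSD17B7 has close pseudogene copies, so its value is uncertain.

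Of 26 genes of the NRF2 set, which respond to oxidative stress and to which AKR1C genes are often counted, 23 were measured. With 12 arrays 0 were called by limma, with 0 to 3 per comparison at an unadjusted p under 0.05. Over all genes the share at that p was 1.36% to 11.3% per comparison. NQO1, a quinone reductase, was called in the treated lines without Enza_Ctrl replicate 2. It read 12.29, 12.49 and 11.56 in Abi_Dex and 13.40, 13.52 and 13.06 in Enza_Dex, a difference of 1.22 ± 0.29 (SE, limma adjusted p = 0.0393), and 1.22 ± 0.33 with 12 arrays (adjusted p = 0.338). The DMSO difference was 1.07 ± 0.33 with 12 arrays and 1.10 ± 0.32 without that array (adjusted p = 0.331 and 0.143). The set had a median treated difference of 0.14 against -0.01 for all genes, with 16 of 23 above 0, against 48.6% of all genes. Without overlap 4 of the 23 were higher and 2 lower, against 9.43% and 10.7% of all genes.

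**Figure D4:**
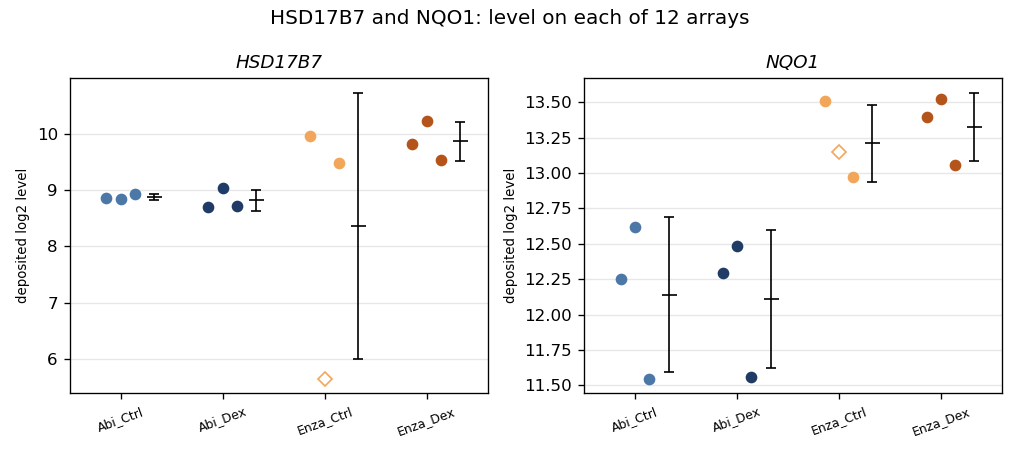
Deposited log2 level (vertical axis) of HSD17B7 and NQO1 on each array by group (horizontal axis); points are arrays, the open diamond is Enza_Ctrl replicate 2, and the bar shows the mean ± SD of 3 arrays. In both genes the Enza_Dex arrays lay above the Abi_Dex arrays, as in 9.43% of all genes, and HSD17B7 had 1 array at 5.64.

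Among 18 cofactor partners and sulfate handling genes, 15 were measured and 0 were called by limma in any comparison in either set of arrays, with 0 to 5 per comparison at an unadjusted p under 0.05. Of 8 steroid receptor genes 6 were measured and 0 were called, with at most 1 per comparison at an unadjusted p under 0.05. For both lists the share of all genes at that p ran from 1.36% to 11.5% per comparison. NR3C1, the glucocorticoid receptor through which dexamethasone acts, ranged from 11.14 to 11.49 in Abi_Ctrl, 9.44 to 10.15 in Abi_Dex, 6.51 to 10.37 in Enza_Ctrl and 6.38 to 9.03 in Enza_Dex. The Enza arrays were uneven and all lay below the Abi arrays of the same treatment, with differences of -3.20 ± 0.88 and -2.48 ± 0.88 (SE) for DMSO and dexamethasone (limma adjusted p = 0.261 and 0.775), or -2.87 ± 0.84 and -2.48 ± 0.75 without Enza_Ctrl replicate 2 (adjusted p = 0.14 and 0.127). With 12 arrays 8.22% of all genes were lower without overlap with DMSO and 10.7% with dexamethasone. NR3C1 was singled out after its values were seen. The part of the receptor level in the enzyme differences was not tested.

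Over the 11 arrays without Enza_Ctrl replicate 2, the genes most like HSD17B11 by Pearson r were MEAF6 at 0.971, NOTCH3 at 0.966 and RRM2B at 0.952. MEAF6 encodes a subunit of histone acetyltransferase complexes, NOTCH3 a Notch receptor and RRM2B a p53-induced subunit of ribonucleotide reductase. After each group's mean was taken off, the values were 0.917, 0.829 and 0.742. The genes were picked by r over these same arrays, so the values within groups are partly set by that choice and are no separate result. MEAF6 read 12.78, 12.66 and 12.15 in Abi_Dex and 11.25, 11.50 and 11.63 in Enza_Dex. NOTCH3 read 5.13, 5.19 and 4.93 against 4.14, 4.28 and 4.23, a dim gene in both lines. RRM2B ranged from 11.79 to 12.06 in Abi_Dex and from 11.25 to 11.62 in Enza_Dex. The arrays share line, treatment and normalization, and these were the highest of all genes compared, so the values are a description.

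**Figure D5:**
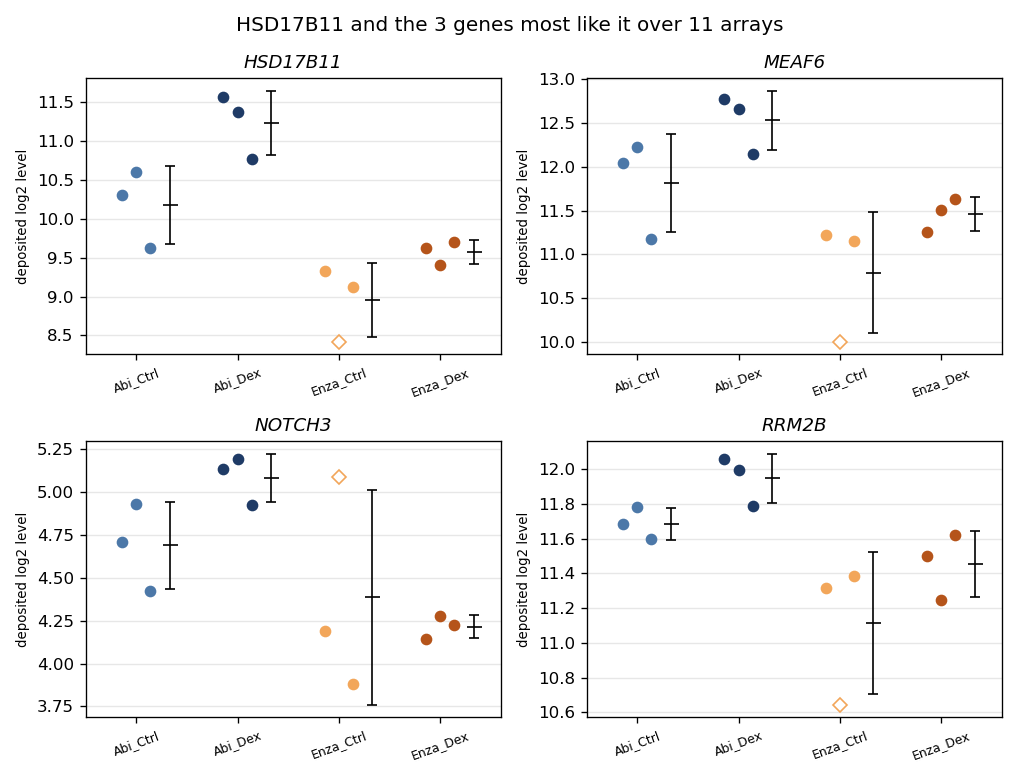
Deposited log2 level (vertical axis) of HSD17B11, MEAF6, NOTCH3 and RRM2B on each array by group (horizontal axis); points are arrays, the open diamond is Enza_Ctrl replicate 2, and the bar shows the mean ± SD of 3 arrays. In all 4 genes the Enza_Dex arrays lay below the Abi_Dex arrays, as in 10.7% of all genes. MEAF6, NOTCH3 and RRM2B were picked for their likeness to HSD17B11 on these arrays without Enza_Ctrl replicate 2.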

How the data were processed

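Per the labels' protocols, RNA of 12 samples was labelled with biotin (WT PLUS) for Affymetrix arrays of 1 colour. The authors' deposited values are log2, made with RMA in Expression Console and with limma, per the submitters' processing notes, which give no versions. The deposited log2 values ran from 1.66 to 18.6, wide for RMA alone, so folds are on the deposited scale and may exceed the change in RNA. Symbols came from the platform annotation (17709 of 24351 rows). The brightest row of a symbol was kept, which left 17687 genes, and 0 array columns were left unmapped. The fit used limma 3.58.1 under R 4.3.3 (4 group means, eBayes, no replicate block), with Benjamini-Hochberg adjustment over all 17687 genes and a gene called at an adjusted p under 0.05. The script was tested on simulated data. The number of arrays limits the precision. No arrays were identical (highest Pearson r 0.996).

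By rule the text names the enzymes, called genes of the pathway lists, and the 3 genes most like each called enzyme. Cell type markers are named to check the lines, and NR3C1, TMPRSS2, AKR1C4, STS and TKT outside the rule, after their values were seen. The enzymes and lists were chosen with earlier results of these data known. Alternatives left out each array, added the replicate number as a block, normalized by quantiles anew, left out the dimmest 20% of genes, weighted arrays, or fitted only the groups compared. Array quality was read from control rows.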

Additional observations from a re-analysis of the deposited data

How the results depend on the processing

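The untreated and treated lines had 47 and 49 called genes and dexamethasone in LNCaPabl-Abi had 5. With array weights these counts were 252, 767 and 37, with only the groups compared 0, 502 and 22, and with the groups compared and Enza_Ctrl replicate 2 left out 117, 502 and 22. Array weights called 4 enzymes in the treated lines and 1 with dexamethasone in LNCaPabl-Abi, and only the groups compared called 3 enzymes in the treated lines. Leaving out arrays in turn, alone or after Enza_Ctrl replicate 2, gave 11 to 242, 12 to 459 and 0 to 29 called genes, 0 to 1 with dexamethasone in LNCaPabl-Enza and for the difference between responses, 0 to 1 enzymes in the untreated and 0 to 2 in the treated lines. The fits restricted to 2 groups or to fewer arrays were partly added after seeing the data.

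Same-numbered arrays were not taken as pairs: 5 of 18 pairs had a correlation of deviations over 0.1 (range -0.04 to 0.30), and 11 of 12 arrays correlated best with their own number, a hint from the data only. Without Enza_Ctrl replicate 2 it was 8 of 15 pairs, against 1 of 30 pairs of unlike number, and 9 of 11 arrays. With the replicate block, 64, 56 and 4 genes were called in the untreated lines, the treated lines and with dexamethasone in LNCaPabl-Abi, and 0 enzymes. With the block and Enza_Ctrl replicate 2 left out, the counts were 303, 540 and 39, with 4 enzymes in the treated lines and 1 gene for the difference between responses.

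Of 45 enzyme values, 25 kept their sign in every setting run for them (27 to 30 each), those of HSD17B11 among them, and 20 turned in at least 1, the largest of them 0.52 in size. The cause was not tested. In LNCaPabl-Enza with dexamethasone, AKR1C1 turned to -0.073 and HSD17B6 to 0.041 with the block and the array left out. Quantile normalization anew gave 0.30 for AKR1C3, -0.0058 for HSD11B2 and 0.29 for HSD17B6 there, and AKR1C3 was 0.093 with array weights and 0.16 in the 2 groups without the array. For the difference between responses, AKR1C1 was -0.10 with the block and the array left out together and -0.089 with array weights. HSD3B1 was 0.15 with the block and the array left out together, 0.28 after quantile normalization and 0.057 with array weights, and HSD17B6 was 0.18 after quantile normalization.

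Leaving out arrays in turn gave these ranges for values that turned. In the untreated lines HSD3B1 ran from -0.90 to 0.24 and HSD17B6 from -0.32 to 0.16, and in the treated lines HSD3B1 from -0.35 to 0.015. With dexamethasone in LNCaPabl-Abi the ranges were -0.20 to 0.32 for AKR1C1, -0.070 to 0.39 for AKR1C2, -0.11 to 0.37 for HSD17B6 and -0.32 to 0.061 for SRD5A1. In LNCaPabl-Enza they were -0.024 to 0.22 for AKR1C1, -0.023 to 0.79 for AKR1C2, -0.43 to 0.74 for AKR1C3, -0.79 to 0.34 for HSD3B1 and -0.11 to 0.064 for HSD17B6. For the difference between responses they were -0.24 to 0.34 for AKR1C1, -0.15 to 0.67 for AKR1C2, -0.19 to 0.98 for AKR1C3, -0.39 to 0.74 for HSD3B1, -0.77 to 0.099 for HSD11B2, -0.34 to 0.047 for HSD17B4 and -0.40 to 0.081 for HSD17B6.

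Signal limits the 5 enzymes in the range of the background rows, and leaving out the dimmest 20% of genes removed AKR1C3 and HSD3B1. The filter and quantile normalization kept each comparison's total of called genes within 1.5 times, though genes called lower in the untreated lines went from 37 to 24 after quantile normalization. The mean of several rows per gene gave no other value, since each enzyme had 1 row.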

Other observations

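STS, the sulfatase that frees active steroids from their sulfates, was picked after its values were seen. It read 6.63, 6.70 and 6.44 in Abi_Ctrl and 5.11, 5.16 and 6.02 in Enza_Ctrl, and 6.62, 6.82 and 6.44 in Abi_Dex against 6.29, 5.87 and 5.69 in Enza_Dex. All Enza arrays lay below all Abi arrays. With 12 arrays 8.22% of all genes were lower without overlap with DMSO and 10.7% with dexamethasone. The STS levels also lay inside the span of the background control rows (2.42 to 8.21 on the 11 arrays without Enza_Ctrl replicate 2). By limma the difference was -1.16 ± 0.28 (SE) with DMSO and -0.68 ± 0.28 with dexamethasone (adjusted p = 0.171 and 1.00), or -1.02 ± 0.26 and -0.68 ± 0.23 without Enza_Ctrl replicate 2 (adjusted p = 0.0836 and 0.210), so neither passed. TKT, an enzyme of the pentose phosphate pathway that supplies NADPH to reductases, was also picked after its values were seen, and differed, Enza minus Abi, by 0.88 ± 0.21 with DMSO and 0.64 ± 0.19 with dexamethasone without that array (limma adjusted p = 0.0608 and 0.115), and by 0.59 ± 0.27 and 0.64 ± 0.27 with it (adjusted p = 0.432 and 1.00), so it did not pass either.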
